A study of Homo sapiens with 15 samples.

Results

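The genes described here are 10 genes for Slit, Robo, netrin, semaphorin and neuropilin proteins and a Robo partner, out of the 60649 genes that the count tables list. They are SLIT2, SLIT3, NTN4, SEMA3A, SEMA3C and SEMA3F (secreted ligands), ROBO1, NRP1 and NRP2 (receptors) and SRGAP1 (a cytoplasmic partner of Robo receptors). SLIT2 was chosen on its measured rise against the control in both knockouts, as the strongest shared one, and the other 9 genes were listed by family with those results known. The values of SLIT2 against the control are therefore a description and carry no test. All 10 genes were found in the tables, and 9 of them had reads in all 15 libraries, whereas SLIT3 had none.

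The libraries are RNA-seq of HSC-5, an established cell line of human squamous skin carcinoma, in which Cas9 was used with guides against PRMT5, an arginine methyltransferase, or against WDR77, its binding partner. There are 15 libraries, 3 biological replicates for each of 5 conditions. The comparisons ask how the loss of either protein of the complex changes the transcriptome. The reads counted on genes ranged from 5146711 to 6730428 over the libraries (median 5806938).

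In the labels the sgNeg libraries have the genotype WT and serve as the control. The sgPRMT5-1 and sgPRMT5-2 libraries have the genotype PRMT5 Knockout, each with its own guide to exons of the catalytic domain, and are pooled below as PRMT5KO with 6 libraries. The sgWDR77-1 and sgWDR77-2 libraries have the genotype WDR77 Knockout, with guides to the first WD repeat, and are pooled as WDR77KO with 6 libraries. All 5 conditions carry the treatment label Neomycin, the controls included. The 3 libraries of a guide share that guide, and neither the labels nor the methods say whether replicates were separate infections or cultures of 1 infected population. The p-values below therefore measure the spread between these libraries. The pooled fits held no term for the guide. Their p-values thus treat the 6 libraries of a knockout alike and do not measure the spread between guides. Levels are counts-per-million values (CPM) of the reads on genes, with library sizes scaled by the trimmed mean of M values. Tests are limma voom fits over all genes that passed a minimum mean count, two-sided, with Benjamini-Hochberg adjustment over all of them and a threshold of 0.05.

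Slit proteins are secreted, bind Robo receptors on the cell surface, and turn growing axons away, and the srGAP proteins bind the inner end of Robo. Class 3 semaphorins are secreted ligands that bind neuropilins, which signal through plexins, and netrins are secreted proteins related to laminins. Outside the nervous system these ligands and receptors act in cell migration, in the growth of vessels and nerves, and in epithelia, and several are expressed by keratinocytes and carcinoma cells.

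The targeted genes were read first as a check of the labels. For PRMT5 (ENSG00000100462.16) the mean and SD of 3 libraries were 58.9 ± 9.10 CPM with sgNeg, 36.8 ± 4.29 with sgPRMT5-1, 42.7 ± 2.85 with sgPRMT5-2, 57.7 ± 5.66 with sgWDR77-1 and 69.8 ± 8.72 with sgWDR77-2. All 6 PRMT5KO libraries, at 33.0 to 44.5 CPM, lay below the 3 sgNeg libraries, at 49.6 to 67.8, and below all WDR77KO libraries. PRMT5 fell by 0.57 on the log2 scale in PRMT5KO against sgNeg (adjusted p 0.00874, lower in 6 of 6 libraries). For WDR77 (ENSG00000116455.14) they were 119 ± 5.70 CPM with sgNeg, 136 ± 18.3 with sgPRMT5-1, 125 ± 5.39 with sgPRMT5-2, 45.4 ± 12.6 with sgWDR77-1 and 24.5 ± 2.33 with sgWDR77-2. It fell by 1.86 on the log2 scale in WDR77KO against sgNeg (adjusted p 9e-05, lower in 6 of 6 libraries). The transcript of each target was thus lower in its own knockout, and both calls remained without any 1 library, at adjusted p-values up to 0.044 for PRMT5 and up to 0.00122 for WDR77. PRMT5 transcripts in PRMT5KO and WDR77 transcripts in WDR77KO were lower but not absent, and protein was not measured in these libraries. The paper reports Western blots of HSC-5 with the same guides, in which depletion of either protein lowered the other protein as well.

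The cell type of the label was read from marker lists. All 9 squamous keratinocyte markers (KRT5, KRT14, KRT17, TP63, CDH1, DSG3, DSC3, SFN and ITGB4) had reads in every library, with summed levels of 2821.8 to 3705.9 CPM and KRT17 as the most abundant by mean level. KRT14 was near 0, with 38 reads over the 15 libraries. Of the lists for cells that a cultured line should not hold, the immune list summed to at most 0.740 CPM in a library, with CD3E at 0. The fibroblast list summed to 6.68 to 16.2 CPM, nearly all from COL1A1, with COL1A2 at 0. COL1A1 was lower in sgPRMT5-2 against sgNeg (-0.66, adjusted p 0.0142), a call that ended without sgPRMT5-2 replicate 1 (0.132) or 2 (0.0861). The endothelial list summed to 12.7 to 36.1 CPM, most of it from CDH5, which had a mean of 18.5 CPM in sgNeg and 31.7 CPM in sgWDR77-1, with KDR and TEK at 0. CDH5 was higher in sgWDR77-1 against sgNeg (0.83, adjusted p 0.0271), which ended without sgNeg replicate 1, 2 or 3 (0.103, 0.133 and 0.0749) or sgWDR77-1 replicate 2 (0.0562). VWF of that list was lower in sgPRMT5-2 against sgNeg (-2.29, adjusted p 0.00271, kept without any 1 library) and in PRMT5KO against sgNeg (-1.92, adjusted p 0.0181), a call that ended without sgNeg replicate 1 (0.084) or 2 (0.0522). It was also lower in PRMT5KO against WDR77KO (-1.41, adjusted p 0.0283), which ended without sgPRMT5-1 replicate 3 (0.0712), sgPRMT5-2 replicate 1 or 2 (0.0811 and 0.0612) or sgWDR77-1 replicate 2 or 3 (0.0583 and 0.052). KRT5 moved with the conditions, with means of 656 CPM for sgNeg, 270.3 for sgPRMT5-1, 55.9 for sgPRMT5-2, 40.0 for sgWDR77-1 and 91.3 for sgWDR77-2, and its part in the results below was not tested. In PRMT5KO against sgNeg 4 of the 8 keratinocyte markers that passed the filter were called, KRT5 (-2.41, adjusted p 0.0065) and DSG3 (-0.70, adjusted p 0.00604) lower and SFN (0.40, adjusted p 0.00551) and CDH1 (0.31, adjusted p 0.00955) higher, beside 17% of all genes. In WDR77KO 3 of the 8 were called, beside 3.39% of all genes, KRT5 (-3.42, adjusted p 1.59e-06) and DSG3 (-0.82, adjusted p 0.00146) lower and CDH1 (0.40, adjusted p 0.0175) higher. The call of CDH1 ended in PRMT5KO without sgNeg replicate 2 (adjusted p 0.0557) and in WDR77KO without sgNeg replicate 1, 2 or 3 (0.0801, 0.118 and 0.0721), and the other keratinocyte marker calls were kept without any 1 library. KRT17 had a mean of 807 CPM in sgNeg, 805 in sgWDR77-1 and 1431 in sgWDR77-2. Between guides, 2 of the 8 keratinocyte markers were called higher in sgWDR77-2 than in sgWDR77-1, beside 0.121% of all genes. Without sgWDR77-2 replicate 1, 0 genes were called in that comparison. In sgPRMT5-2 against sgPRMT5-1 4 of the 8 were called lower, beside 19.2% of all genes. In such bulk RNA, fewer cells of a type and less RNA per cell cannot be told apart.

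In PRMT5KO against sgNeg 5 of the 8 members tested were called, 2 higher and 3 lower, beside 17% of all genes tested. In WDR77KO against sgNeg 3 of the 8 were called, 1 higher and 2 lower, beside 3.39% of all genes. In PRMT5KO against WDR77KO, which does not use sgNeg, 4 of the 9 members tested were called, 2 in each direction, beside 14% of all genes. These shares of members lay above the shares of all genes, but the members were listed with results of these data known, so the counts describe them and support nothing more. The median log2 fold change over the 9 members past the filter, SLIT2 included, was -0.13 in PRMT5KO, 0.05 in WDR77KO and 0.02 in PRMT5KO against WDR77KO, beside -0.01, 0.00 and 0.02 over all genes. The counts moved with single libraries. In PRMT5KO against sgNeg the members called were 3 without sgNeg replicate 1, 2 without sgNeg replicate 2 and 3 without sgNeg replicate 3. In PRMT5KO against WDR77KO 1 member was left without sgPRMT5-2 replicate 1, 2 or 3, sgWDR77-1 replicate 2 or 3, or sgWDR77-2 replicate 2 or 3.

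Guide by guide, 2 of the 8 members were called in sgPRMT5-1 against sgNeg, both lower, beside 3.76% of all genes. In sgPRMT5-2 against sgNeg 6 of the 8 were called, 2 higher and 4 lower, beside 40.1% of all genes, and the count was 6 without any 1 library. In sgWDR77-1 4 of the 8 were called, 2 in each direction, beside 2.71%, and in sgWDR77-2 3 of the 8, 1 higher and 2 lower, beside 4.97%. The counts of the other guides again moved with single libraries. For sgPRMT5-1 both members lost their call without sgNeg replicate 1 and 1 of them without sgPRMT5-1 replicate 2. For sgWDR77-1 all 4 members lost their call without any 1 sgNeg replicate or without sgWDR77-1 replicate 2, and 3 of them without sgWDR77-1 replicate 3, and for sgWDR77-2 1 member was left without sgWDR77-2 replicate 2. The single higher call in sgWDR77-2, ROBO1 (0.45, adjusted p 0.0446, 3 of 3 libraries above sgNeg), ended without sgNeg replicate 1, 2 or 3 (adjusted p 0.12, 0.127 and 0.0765), without sgWDR77-2 replicate 2 or 3 (0.124 and 0.0855), with library totals alone (0.0551), with no filter on low counts (0.0958) and with a replicate block (0.12), within 0.0365 to 0.127 over all settings. Within sgWDR77-1, replicate 1 differed from replicates 2 and 3 by chi-square values of 13.7 and 19.4 for each degree of freedom, beside 3.42 between those 2. It had 3.57% of reads on no feature against 6.04% and 5.70%, where the median of all libraries was 3.88%. The highest share was 7.16%, in sgNeg replicate 2. That library differed from sgNeg replicates 1 and 3 by chi-square values of 9.94 and 6.96, beside 4.11 between those 2. Without sgWDR77-1 replicate 1, the genes called in sgWDR77-1 against sgNeg rose from 385 to 1003 and the members called stayed at 4; the cause was not tested. All 6 comparisons against sgNeg share the same 3 sgNeg libraries and are given side by side, not as independent results.

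Between guides of the same gene, 5 of the 9 members tested differed in sgPRMT5-2 against sgPRMT5-1, 3 higher and 2 lower, beside 19.2% of all genes, and 3 were called without sgPRMT5-1 replicate 1. In sgWDR77-2 against sgWDR77-1 limma voom called 0 of 9 members, beside 0.121% of all genes, and limma-trend also called 0. At an unadjusted p under 0.05 there were 3 members in that comparison (SRGAP1, SEMA3C and NTN4). A missed threshold does not show that the WDR77 guides acted alike.

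**Figure D1:**
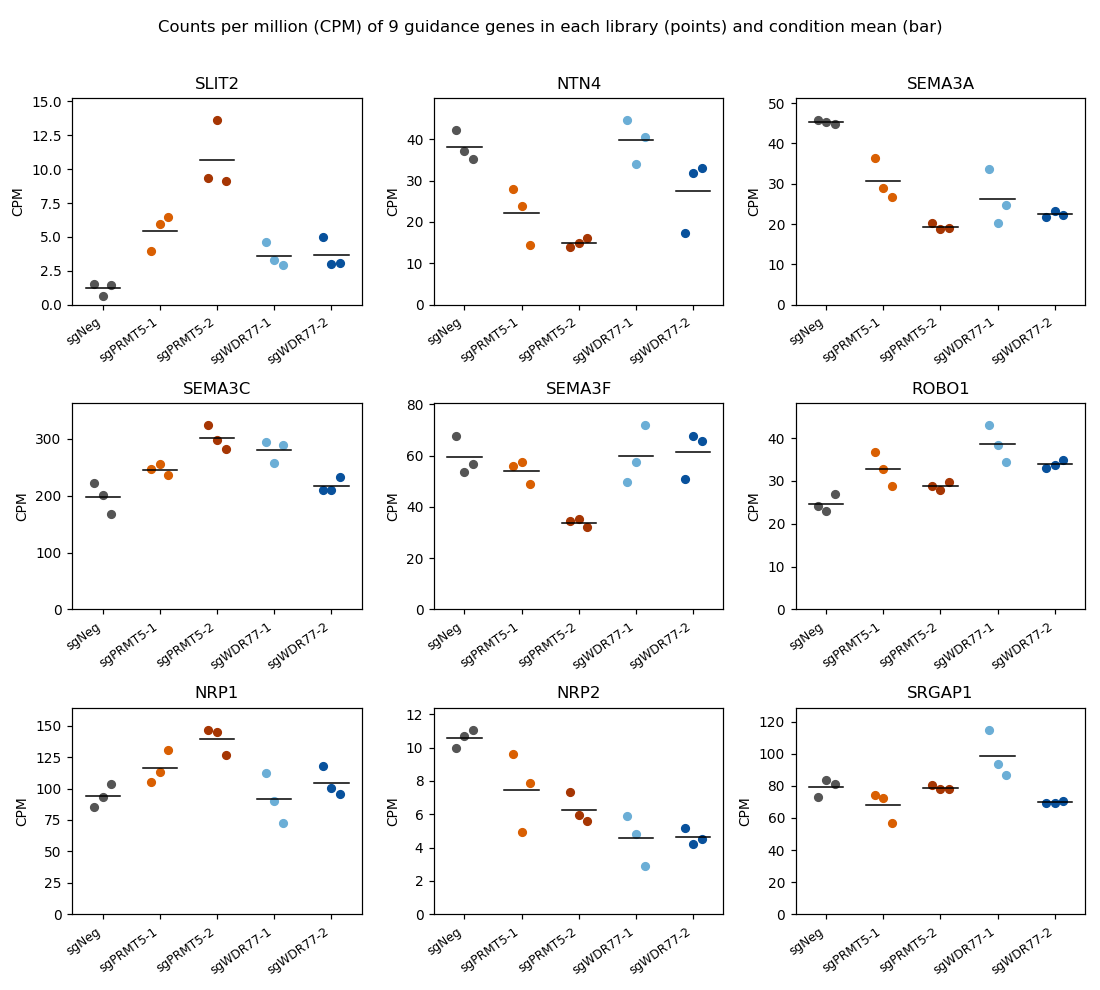
CPM of the 9 members with reads, with each point a library and each bar the mean of 3 libraries, by condition. SLIT2 lay between 0.657 and 1.52 CPM in the sgNeg libraries and between 2.92 and 13.6 CPM in the knockout libraries, and all knockout libraries of SEMA3A and NRP2 lay below sgNeg.

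SLIT2 (ENSG00000145147.20) lies on the plus strand of chromosome 4 from 20251905 to 20620561 (GRCh38), with 37 exons in its MANE transcript, and encodes a secreted ligand of Robo receptors. SLIT2 stood at 1.52, 0.657 and 1.45 CPM in sgNeg replicates 1 to 3, at 3.97, 5.94 and 6.51 in sgPRMT5-1, at 9.33, 13.6 and 9.14 in sgPRMT5-2, at 4.62, 3.33 and 2.92 in sgWDR77-1, and at 5.01, 3.00 and 3.06 in sgWDR77-2. All 12 knockout libraries lay above the 3 sgNeg libraries, the sgPRMT5-2 libraries were the highest, and each guide of WDR77 overlapped the other. These levels rest on few reads, 4 to 9 per library in sgNeg and 16 to 80 in the knockouts. The SLIT2 log2 fold change was 2.62 in PRMT5KO (6.14-fold) and 1.59 in WDR77KO (3.00-fold), which placed it at rank 13 and rank 40 from the top among all genes tested. By guide the log2 fold changes were 2.12 for sgPRMT5-1, 3.11 for sgPRMT5-2, 1.61 for sgWDR77-1 and 1.58 for sgWDR77-2. These are the values that chose the gene, and leaving out each library in turn gave 2.25 to 2.82 in PRMT5KO and 1.22 to 1.79 in WDR77KO.

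Comparisons without sgNeg allow a test of SLIT2, but they use the same knockout libraries whose rise chose the gene. The intervals and p-values of SLIT2 below are therefore not independent of that choice. In PRMT5KO against WDR77KO SLIT2 was higher by a log2 fold change of 1.05 (95% interval 0.45 to 1.65, adjusted p 0.0229), and 5 of 6 PRMT5KO libraries lay above all 6 WDR77KO libraries. The exception was sgPRMT5-1 replicate 1, at 3.97 CPM, which fell among the WDR77KO libraries. In sgPRMT5-2 against sgPRMT5-1 SLIT2 was higher by 0.98 (0.49 to 1.47, adjusted p 0.00612), with all 3 libraries above the others. In sgWDR77-2 against sgWDR77-1 the difference was -0.01 (-0.74 to 0.72, adjusted p 0.994). The difference between knockouts missed the threshold without sgPRMT5-2 replicate 1, 2 or 3 (adjusted p 0.0618, 0.0516 and 0.0572), without sgWDR77-1 replicate 2 or 3 (0.0576 and 0.06) and without sgWDR77-2 replicate 2 or 3 (0.0527 and 0.0547). Over the other settings its adjusted p ran from 0.00102 to 0.0427. The difference between the PRMT5 guides missed it without sgPRMT5-1 replicate 1 (log2 0.74, adjusted p 0.063) and ran from 0.00151 to 0.0175 over the other settings.

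The bases before the start of SLIT2, ROBO1, NTN4, NRP2 and SEMA3C are shown because the knockout libraries of these genes stood apart from sgNeg, the first pair above it in both knockouts, NTN4 below it in PRMT5KO, NRP2 below it in both and SEMA3C above it in PRMT5KO. The windows come from RefSeq (GRCh38.p14), run 5′ to 3′ on the strand of the gene, and hold the 250 bases before the start, and 8 of the 10 members were found in that table; SEMA3A and NRP1, which also stood apart, were not. The window at the start of the MANE transcript is shown; ROBO1, NTN4 and SEMA3C each have a further window in the table. Capitals mark 3 motifs searched on both strands: the TATA motif TATAA, the GC box motif GGGCGG, and the motif of the CCAAT box.
SLIT2, chr4:20251655-20251904, plus strand: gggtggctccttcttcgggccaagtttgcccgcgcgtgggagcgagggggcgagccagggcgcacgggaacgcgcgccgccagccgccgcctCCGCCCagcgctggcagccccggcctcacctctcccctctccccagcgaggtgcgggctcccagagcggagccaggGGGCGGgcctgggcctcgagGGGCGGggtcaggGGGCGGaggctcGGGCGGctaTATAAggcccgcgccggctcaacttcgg
ROBO1, chr3:79767999-79768248, minus strand: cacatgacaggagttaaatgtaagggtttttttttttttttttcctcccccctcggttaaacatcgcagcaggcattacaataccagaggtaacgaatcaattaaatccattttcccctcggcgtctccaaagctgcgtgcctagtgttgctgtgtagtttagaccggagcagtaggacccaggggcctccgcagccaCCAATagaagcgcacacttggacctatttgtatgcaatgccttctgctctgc
NTN4, chr12:95790765-95791014, minus strand: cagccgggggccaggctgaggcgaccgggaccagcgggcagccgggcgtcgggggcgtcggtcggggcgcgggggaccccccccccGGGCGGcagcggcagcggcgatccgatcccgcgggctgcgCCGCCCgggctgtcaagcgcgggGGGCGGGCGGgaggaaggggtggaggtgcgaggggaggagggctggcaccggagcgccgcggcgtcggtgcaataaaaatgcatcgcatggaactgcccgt
NRP2, chr2:205682251-205682500, plus strand: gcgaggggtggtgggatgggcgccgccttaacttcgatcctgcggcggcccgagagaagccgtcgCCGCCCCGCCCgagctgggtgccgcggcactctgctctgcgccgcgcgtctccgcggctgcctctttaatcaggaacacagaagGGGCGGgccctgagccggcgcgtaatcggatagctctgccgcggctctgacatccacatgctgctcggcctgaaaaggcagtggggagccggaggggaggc
SEMA3C, chr7:80919052-80919301, minus strand: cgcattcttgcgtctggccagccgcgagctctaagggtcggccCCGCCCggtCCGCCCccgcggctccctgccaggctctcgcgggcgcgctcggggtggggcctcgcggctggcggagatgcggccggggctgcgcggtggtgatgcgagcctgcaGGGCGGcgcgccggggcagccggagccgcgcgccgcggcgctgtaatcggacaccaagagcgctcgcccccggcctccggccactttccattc

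The SLIT2 window held 1 TATAA match on its own strand, starting 28 bases before the start, and 5 GGGCGG matches, 4 of them on its own strand, at a GC content of 77.2%. ROBO1, whose knockout libraries like those of SLIT2 lay above sgNeg, held neither motif in its window, but 1 CCAAT match at a GC content of 48.0%. NTN4 held 4 GGGCGG matches, 3 of them on its own strand, at a GC content of 78.4%, whereas its further window, at a start 391 bases away, held none of the 3 motifs at 64.4%. The further window of ROBO1 held 1 CCAAT match on the other strand at 56.8%. NRP2 held 3 GGGCGG matches, 1 of them on its own strand, at 70.0%, and 1 base of its window lies in an exon of the gene. SEMA3C held 3 GGGCGG matches, 1 of them on its own strand, at 77.6%, with 132 bases of its window in an exon of the gene, and its further window, at a start 3338 bases away, held none of the 3 motifs at 36.4%. Of all 35116 windows of the same length, 18.93% held TATAA, 42.64% GGGCGG and 32.01% CCAAT on either strand, with a median GC content of 58.0%. A match describes letters in the window and is not a binding site, and no motif was common to these 5 windows.

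The SLIT2 gene also holds the hairpin of miR-218, and SLIT3 holds a second copy, so the mature sequence is shown with its seed (bases 2 to 8) in capitals, from RefSeq.
hsa-miR-218-5p, chr4:20528299-20528319, plus strand, and chr5:168768211-168768231, minus strand: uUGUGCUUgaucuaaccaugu
The seed match AAGCACA was found 2 times in the 3′ untranslated region of SLIT2 (1555 bases), 1 time in that of ROBO1 (1677 bases), 1 time in that of SLIT3 and 2 times in that of SRGAP1 (19548 bases), and not in those of the other 6 members. Of the untranslated regions within 10% of the same length, 15.26% of 1219 held a match for SLIT2, 15.56% of 1279 for ROBO1, 35.71% of 700 for SLIT3 and 80.0% of 10 for SRGAP1. The hairpin genes MIR218-1 and MIR218-2 and the locus transcripts SLIT2-IT1, SLIT3-AS1 and SLIT3-AS2 had 0 reads in all 15 libraries, and messenger RNA libraries of this kind do not capture mature miRNAs, whose levels were not measured.

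SLIT3 (ENSG00000184347.15, chromosome 5), the other Slit ligand of the group, had 0 reads in all 15 libraries. Over the 86823722 reads on genes this allows a level of up to 0.0346 CPM (3 counts over all libraries), a limit that covers counting error only. No fold change is given for it.

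NTN4 (ENSG00000074527.13, minus strand of chromosome 12, 95657807 to 95791189) encodes netrin-4, a secreted protein that binds laminins. It stood at 42.2, 37.1 and 35.2 CPM in sgNeg, 28.0, 23.8 and 14.6 in sgPRMT5-1, 13.8, 14.96 and 16.2 in sgPRMT5-2, 44.5, 34.1 and 40.5 in sgWDR77-1, and 17.3, 31.8 and 32.9 in sgWDR77-2. All 6 PRMT5KO libraries lay below sgNeg, whereas the sgWDR77-1 libraries overlapped sgNeg and the sgWDR77-2 libraries lay below it. In PRMT5KO NTN4 fell to 0.467 of its sgNeg level (95% interval on the log2 scale -1.49 to -0.71, adjusted p 0.00358, lower in 6 of 6 libraries). In PRMT5KO against WDR77KO it was lower, at -0.85 (-1.29 to -0.40, adjusted p 0.0159, with 4 of 6 PRMT5KO libraries below all WDR77KO libraries). Both calls were kept under every other setting and without any 1 library, with adjusted p-values up to 0.027 and 0.0469. By guide, sgWDR77-2 overlapped sgPRMT5-1 in NTN4, with 2 of 3 sgWDR77-2 libraries above all sgPRMT5-1 libraries. In WDR77KO against sgNeg its log2 fold change was -0.24 (adjusted p 0.651). By guide it was -0.84 in sgPRMT5-1 (adjusted p 0.0094, and 0.0631 without sgNeg replicate 1, within 5.59e-05 to 0.0631 over all settings), -1.35 in sgPRMT5-2 (1.15e-07), 0.08 in sgWDR77-1 (0.819) and -0.53 in sgWDR77-2 (0.122). The difference between the PRMT5 guides was -0.52 (adjusted p 0.0573) and passed the threshold without sgPRMT5-1 replicate 3, at -0.78 (adjusted p 1.1e-05), with no filter on low counts (0.0273) and with a replicate block (0.0159), within 1.1e-05 to 0.306 over all settings.

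SEMA3A (ENSG00000075213.11, minus strand of chromosome 7, 83955777 to 84492724) encodes a secreted class 3 semaphorin that binds NRP1. It stood at 45.7, 45.4 and 44.8 CPM in sgNeg, 36.5, 29.0 and 26.7 in sgPRMT5-1, 20.2, 18.9 and 19.0 in sgPRMT5-2, 33.6, 20.4 and 24.8 in sgWDR77-1, and 21.8, 23.3 and 22.1 in sgWDR77-2. All 12 knockout libraries lay below the 3 sgNeg libraries, which differed from each other by less than 1 CPM, and the sgPRMT5-2 libraries were the lowest. SEMA3A fell by 0.91 on the log2 scale in PRMT5KO (95% interval -1.27 to -0.55, adjusted p 0.00561) and by 0.91 in WDR77KO (-1.20 to -0.62, adjusted p 0.00102), in 6 of 6 libraries each. Both calls were kept under every other setting and without any 1 library, with adjusted p-values up to 0.0319 and 0.00998. By guide SEMA3A fell by 0.58 in sgPRMT5-1 (adjusted p 0.0128), 1.23 in sgPRMT5-2 (3.92e-08), 0.79 in sgWDR77-1 (0.0321) and 1.02 in sgWDR77-2 (0.000128). The call in sgPRMT5-1 ended without sgNeg replicate 1 (0.0516) or sgPRMT5-1 replicate 2 (0.0778), within 0.0011 to 0.0778 over all settings. That in sgWDR77-1 ended without sgNeg replicate 1, 2 or 3 (0.126, 0.111 and 0.157) or sgWDR77-1 replicate 2 or 3 (0.135 and 0.0517), within 0.000478 to 0.157, and the calls of the other guides were kept without any 1 library. The knockouts did not differ detectably from each other, at 0.02 (-0.33 to 0.37, adjusted p 0.953). The PRMT5 guides did, since sgPRMT5-2 was lower than sgPRMT5-1 by a log2 fold change of -0.66 (-0.93 to -0.38, adjusted p 0.00159, all 3 libraries below), and this was kept without any 1 library.

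SEMA3C (ENSG00000075223.14, minus strand of chromosome 7, 80742538 to 80922359), a secreted semaphorin that binds both neuropilins, was the most abundant member. It stood at 222, 201 and 167 CPM in sgNeg, 247, 255 and 236 in sgPRMT5-1, 324, 297 and 282 in sgPRMT5-2, 294, 257 and 288 in sgWDR77-1, and 209.5, 209 and 233 in sgWDR77-2. The libraries of both PRMT5 guides and of sgWDR77-1 lay above all sgNeg libraries, whereas sgWDR77-2 overlapped them. SEMA3C was higher in PRMT5KO by a log2 fold change of 0.46 (95% interval 0.23 to 0.69, adjusted p 0.0143, higher in 6 of 6 libraries). This missed the threshold without sgNeg replicate 2 (adjusted p 0.0588) and without sgNeg replicate 3 (0.0875), within 0.000455 to 0.0875 over all settings. By guide it was 0.61 in sgPRMT5-2 (adjusted p 1.21e-05, kept without any 1 library) and 0.31 in sgPRMT5-1 (0.0785, not called). The latter passed the threshold with no filter on low counts (0.0107) and with a replicate block (0.00933), within 0.00933 to 0.351. In WDR77KO it was 0.33 (adjusted p 0.211, above sgNeg in 4 of 6 libraries), which passed the threshold with all 15 libraries in 1 fit (0.018, within 0.018 to 0.641 over all settings). The guides of WDR77 differed by -0.38 in SEMA3C (adjusted p 0.245), so the call in sgWDR77-1 alone (0.55, adjusted p 0.044) is not shown to differ from sgWDR77-2 (0.14, adjusted p 0.475). That call in sgWDR77-1 ended without any 1 of sgNeg replicates 1, 2 and 3 (adjusted p 0.0888, 0.134 and 0.266) or sgWDR77-1 replicates 2 and 3 (0.0838 and 0.0709), within 0.00205 to 0.266 over all settings. Between the PRMT5 guides SEMA3C was higher in sgPRMT5-2 by 0.30 (adjusted p 0.00324, all 3 libraries above), which missed the threshold with all 15 libraries in 1 fit (0.0703, within 4.08e-05 to 0.0703 over all settings).

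SEMA3F (ENSG00000001617.12, plus strand of chromosome 3, 50155045 to 50189075) encodes a secreted semaphorin that binds NRP2. It stood at 67.7, 53.7 and 56.8 CPM in sgNeg, 55.8, 57.4 and 48.8 in sgPRMT5-1, 34.5, 35.2 and 32.0 in sgPRMT5-2, 49.7, 57.6 and 71.9 in sgWDR77-1, and 51.0, 67.5 and 65.5 in sgWDR77-2. The 3 sgPRMT5-2 libraries lay below all 12 others, and the other conditions overlapped sgNeg. In sgPRMT5-2 against sgNeg SEMA3F fell by 0.81 on the log2 scale (95% interval -1.03 to -0.59, adjusted p 5.48e-06, lower in 3 of 3 libraries). It was also lower in sgPRMT5-2 than in sgPRMT5-1, at -0.66 (-0.88 to -0.45, adjusted p 0.000127, lower in 3 of 3 libraries), and both calls were kept without any 1 library. Pooled, PRMT5KO against sgNeg gave -0.48 (adjusted p 0.0703) and PRMT5KO against WDR77KO -0.49 (adjusted p 0.0355, with 4 of 6 libraries below all WDR77KO libraries). The latter call was lost without sgPRMT5-2 replicate 1, 2 or 3 (adjusted p 0.0882, 0.0867 and 0.0862), sgWDR77-1 replicate 2 or 3 (0.0603 and 0.0791) or sgWDR77-2 replicate 2 or 3 (0.0676 and 0.0657), or with a replicate block (0.0529), within 0.000979 to 0.0882 over all settings. The former passed the threshold with all 15 libraries in 1 fit (0.00667) and without sgPRMT5-1 replicate 1 (0.0228) or replicate 2 (0.0221), within 0.00667 to 0.242 over all settings. About 2.28% of the exon bases of SEMA3F are shared with SEMA3F-AS1 on the opposite strand. Since the strand setting is not stated, reads there may be counted with SEMA3F or set aside as ambiguous. Ambiguous reads were 7.09% to 7.93% of those listed in a library. The same holds for 4.87% of the exon bases of NRP1, 1.06% of those of NRP2, 1.69%, 0.498% and 0.388% of those of SRGAP1 and up to 2.34% of those of SLIT3, each shared with a transcript of the opposite strand.

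**Figure D2:**
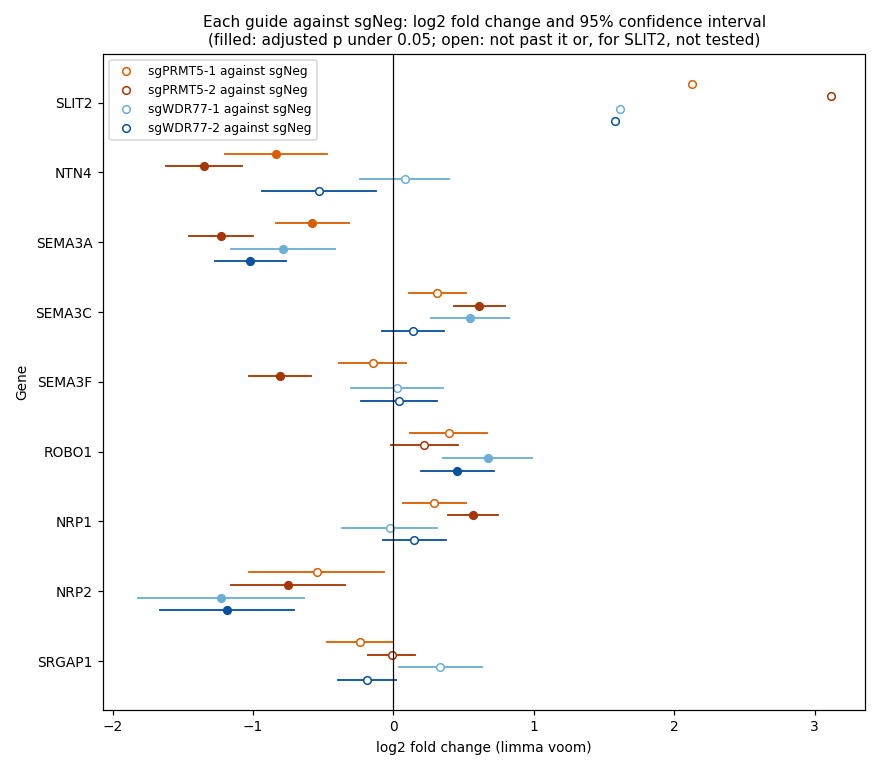
Log2 fold change of each guide against sgNeg for the 9 members with reads, with 95% confidence intervals, filled where the adjusted p was under 0.05 and open elsewhere. SLIT2 is drawn without an interval or test, at 1.58 to 3.11, and SEMA3A is filled for all 4 guides, at -0.58 to -1.23, though its calls in sgPRMT5-1 and sgWDR77-1 ended without single libraries.

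ROBO1 (ENSG00000169855.20, minus strand of chromosome 3, 78597239 to 79767998) encodes the receptor that binds SLIT2. It stood at 24.2, 23.0 and 26.8 CPM in sgNeg, 36.7, 32.8 and 28.8 in sgPRMT5-1, 28.8, 27.9 and 29.8 in sgPRMT5-2, 43.0, 38.3 and 34.5 in sgWDR77-1, and 32.9, 33.7 and 34.9 in sgWDR77-2. All 12 knockout libraries lay above the 3 sgNeg libraries, and unlike SLIT2, ROBO1 was highest by mean in the WDR77 guides. In WDR77KO ROBO1 was higher by a log2 fold change of 0.55 (95% interval 0.28 to 0.82, adjusted p 0.0255, higher in 6 of 6 libraries). The call was lost without sgNeg replicate 1, 2 or 3 (adjusted p 0.122, 0.135 and 0.0764), without sgWDR77-1 replicate 2 (0.0587), with no filter on low counts (0.064) and with a replicate block (0.0591), within 0.00265 to 0.135 over all settings. In PRMT5KO the log2 fold change was 0.30 (0.06 to 0.55, adjusted p 0.0825, above sgNeg in 6 of 6 libraries), and it passed the threshold with upper quartile scaling (0.0492) and with all 15 libraries in 1 fit (0.0444), within 0.0444 to 0.242 over all settings. The knockouts differed by -0.23 (-0.44 to -0.03, adjusted p 0.113), so a call in WDR77KO alone does not show a difference from PRMT5KO. That value passed the threshold without sgPRMT5-1 replicate 1 (-0.30, adjusted p 0.0456) and with all 15 libraries in 1 fit (0.0463), within 0.0456 to 0.254. By guide ROBO1 was at 0.39 in sgPRMT5-1 (adjusted p 0.107, and 0.0409 with a replicate block, within 0.0409 to 0.276) and 0.22 in sgPRMT5-2 (0.131). It was at 0.67 in sgWDR77-1 (0.0318), a call that ended without sgNeg replicate 1, 2 or 3 (0.141, 0.137 and 0.126) or sgWDR77-1 replicate 2 (0.098), within 0.0023 to 0.141.

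NRP1 (ENSG00000099250.18, minus strand of chromosome 10, 33177492 to 33336262) encodes the neuropilin that binds SEMA3A and forms of VEGF. It stood at 85.3, 93.0 and 104 CPM in sgNeg, 106, 113 and 131 in sgPRMT5-1, 147, 145 and 127 in sgPRMT5-2, 112, 89.8 and 72.3 in sgWDR77-1, and 118, 100.3 and 95.8 in sgWDR77-2. All 6 PRMT5KO libraries lay above sgNeg, and the libraries of both WDR77 guides overlapped it. NRP1 was higher in PRMT5KO by 0.43 (95% interval 0.19 to 0.67, adjusted p 0.0223, higher in 6 of 6 libraries), which missed the threshold without sgNeg replicate 1 (0.128) or 2 (0.0846), within 0.00389 to 0.128 over all settings. In WDR77KO it was 0.05 (adjusted p 0.91). The difference between knockouts was 0.39 (0.15 to 0.63, adjusted p 0.0299, with 4 of 6 PRMT5KO libraries above all WDR77KO libraries). It missed the threshold without sgPRMT5-1 replicate 3 (adjusted p 0.0596), sgPRMT5-2 replicate 1, 2 or 3 (0.0944, 0.09 and 0.0727), sgWDR77-1 replicate 2 or 3 (0.0848 and 0.0821) or sgWDR77-2 replicate 2 or 3 (0.0533 and 0.0666), within 0.00351 to 0.0944 over all settings. In sgPRMT5-2 against sgNeg NRP1 was higher by 0.57 (adjusted p 2.61e-05, higher in 3 of 3 libraries), and this was kept without any 1 library. In sgPRMT5-1 it was 0.29 (adjusted p 0.145, not called, above sgNeg in 3 of 3 libraries) and passed the threshold with a replicate block alone (0.0192, within 0.0192 to 0.392 over all settings). Between the PRMT5 guides NRP1 was higher in sgPRMT5-2 by 0.27 (0.09 to 0.45, adjusted p 0.0311, with 2 of 3 libraries above all of sgPRMT5-1). That call ended without sgPRMT5-1 replicate 1 or 2 (adjusted p 0.189 and 0.0877), without sgPRMT5-2 replicate 1 or 2 (0.147 and 0.145), with library totals alone (0.051) and with all 15 libraries in 1 fit (0.205), within 3.63e-05 to 0.205 over all settings.

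NRP2 (ENSG00000118257.17, plus strand of chromosome 2, 205681990 to 205798133) encodes the neuropilin that binds SEMA3F. It stood at 9.99, 10.7 and 11.1 CPM in sgNeg, 9.63, 4.92 and 7.88 in sgPRMT5-1, 7.31, 5.95 and 5.58 in sgPRMT5-2, 5.91, 4.81 and 2.92 in sgWDR77-1, and 5.20, 4.24 and 4.50 in sgWDR77-2. All 12 knockout libraries lay below sgNeg, with the WDR77 guides lowest by mean, and sgPRMT5-1 replicate 1 was closest to sgNeg. NRP2 fell by 1.22 on the log2 scale in WDR77KO (95% interval -1.65 to -0.78, adjusted p 0.00285, lower in 6 of 6 libraries), and this was kept under every other setting and without any 1 library, up to an adjusted p of 0.0197. In PRMT5KO it fell by 0.65 (-1.06 to -0.24, adjusted p 0.0333, lower in 6 of 6 libraries). The latter call was lost without sgNeg replicate 1, 2 or 3 (adjusted p 0.0868, 0.106 and 0.0847), without sgPRMT5-2 replicate 1, 2 or 3 (0.056, 0.0672 and 0.0698), with no filter on low counts (0.0577) and with a replicate block (0.0557), within 0.00879 to 0.106 over all settings. The knockouts differed by 0.58 (0.14 to 1.01, adjusted p 0.0703), a value that passed the threshold without sgPRMT5-1 replicate 2 (0.04) and with all 15 libraries in 1 fit (0.0349), within 0.0349 to 0.169. By guide NRP2 was at -0.55 in sgPRMT5-1 (adjusted p 0.201, not called, within 0.125 to 0.565 over all settings) and at -0.75 in sgPRMT5-2 (0.00437, kept without any 1 library). It was at -1.23 in sgWDR77-1 (0.0352), a call that ended without sgNeg replicate 1, 2 or 3 (0.099, 0.104 and 0.164) or sgWDR77-1 replicate 2 or 3 (0.102 and 0.0882), within 0.00455 to 0.164. In sgWDR77-2 it was at -1.18 (0.00632), which ended without sgWDR77-2 replicate 2 (0.0542), within 0.00438 to 0.0542. Pooled, NRP2 was thus called in both knockouts, in PRMT5KO with 1 of the 2 guides, while a difference between the knockouts was not shown.

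SRGAP1 (ENSG00000196935.9, plus strand of chromosome 12, 63843761 to 64162217) encodes a cytoplasmic protein that binds Robo receptors. It stood at 72.8, 83.8 and 81.1 CPM in sgNeg, 74.6, 72.3 and 57.0 in sgPRMT5-1, 80.4, 78.0 and 77.8 in sgPRMT5-2, 115, 93.3 and 87.0 in sgWDR77-1, and 69.3, 69.1 and 70.7 in sgWDR77-2. The WDR77 guides stood on opposite sides of sgNeg, with all sgWDR77-1 libraries above it and all sgWDR77-2 libraries below it. SRGAP1 was not called in any of the 9 comparisons by limma voom. Its log2 fold change was -0.13 in PRMT5KO (95% interval -0.35 to 0.09, adjusted p 0.407) and 0.06 (-0.26 to 0.39, adjusted p 0.9) in WDR77KO. In sgWDR77-2 against sgWDR77-1 it was -0.50 (-0.79 to -0.21, unadjusted p 0.00253, adjusted p 0.198, lower in 3 of 3 libraries), and this passed the threshold with all 15 libraries in 1 fit (adjusted p 0.0294, within 0.0294 to 0.729 over all settings).

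**Figure D3:**
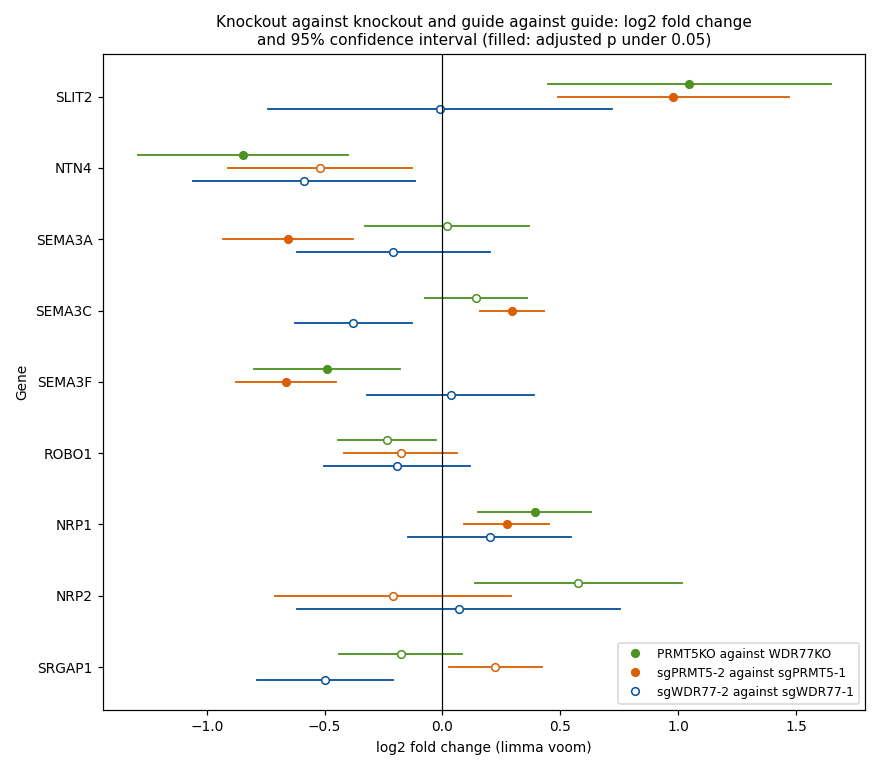
Log2 fold change and 95% confidence interval of PRMT5KO against WDR77KO, of sgPRMT5-2 against sgPRMT5-1 and of sgWDR77-2 against sgWDR77-1 for the 9 members with reads, filled where the adjusted p was under 0.05. None of these uses sgNeg; SLIT2, SEMA3F and NRP1 are filled in both of the first comparisons, SLIT2 at 1.05 and 0.98, and their calls between the knockouts, like those of NRP1 and SLIT2 between the PRMT5 guides, ended without single libraries.

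Of the ligands and receptors, SLIT2 and ROBO1 lay above sgNeg in all 12 knockout libraries, and SEMA3A and NRP2 lay below it in all 12, 4 of the 9 members past the filter beside 4.76% of 14061 genes that lay to 1 side of sgNeg in all 12. NTN4 lay below sgNeg and SEMA3C and NRP1 above it in all 6 PRMT5KO libraries, but not in all WDR77KO libraries. In PRMT5KO 7 of the 9 members thus lay apart from sgNeg, beside 19.2% of all genes (17% called), and in WDR77KO 4 of the 9, beside 10.6% (3.39% called). SLIT2, which was chosen on its rise over sgNeg, is included in these counts and in that over all 12 knockout libraries. The other members were listed with results known, so nothing more is read from these counts. The difference between the knockouts was past the threshold for NTN4 and NRP1 and not for SEMA3C (0.14, adjusted p 0.354). The NTN4 call was kept without any 1 library, whereas that of NRP1 was lost in 8 of 12 such fits (adjusted p up to 0.0944). SEMA3F stood apart in sgPRMT5-2 alone, and SRGAP1 kept to no single side of sgNeg in either knockout. For ligands set beside a receptor among the members, SLIT2 (without a test) and ROBO1 (called in WDR77KO and not in PRMT5KO, and not without any 1 sgNeg library) lay above sgNeg, SEMA3A was lower while NRP1 was higher in PRMT5KO (not without sgNeg replicate 1, at adjusted p 0.128, or 2, at 0.0846), and SEMA3F and NRP2 were both lower in sgPRMT5-2. SEMA3C, which binds both neuropilins, was higher in PRMT5KO (0.46, adjusted p 0.0143), where NRP1 was higher (0.43) and NRP2 lower (-0.65). The calls of SEMA3C, NRP1 and NRP2 in PRMT5KO each ended without single libraries, whereas that of SEMA3A was kept without any 1 library.

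Levels between genes were compared per kilobase of the MANE transcript. In sgNeg the order from the highest was SEMA3C at 40.4 ± 5.65 CPM per kilobase, NRP1 at 16.7 ± 1.62, SEMA3F at 16.5 ± 2.04, NTN4 at 10.5 ± 0.993, SEMA3A at 5.58 ± 0.0566, ROBO1 at 3.56 ± 0.283, SRGAP1 at 3.46 ± 0.250, NRP2 at 1.59 ± 0.0821 and SLIT2 at 0.1503 ± 0.0597. NRP1 and SEMA3F, and likewise ROBO1 and SRGAP1, did not differ beyond their spread. The ligand SLIT2 was thus the least abundant of the 9 in sgNeg, below its receptor. In sgPRMT5-2 it stood at 1.33 ± 0.313 CPM per kilobase, with NRP2 at 0.945 ± 0.137 and ROBO1 at 4.16 ± 0.137. NTN4 passed from above SEMA3A and ROBO1 in sgNeg to 4.15 ± 0.333 CPM per kilobase in sgPRMT5-2, level with ROBO1 and above SEMA3A at 2.38 ± 0.0927.

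**Figure D4:**
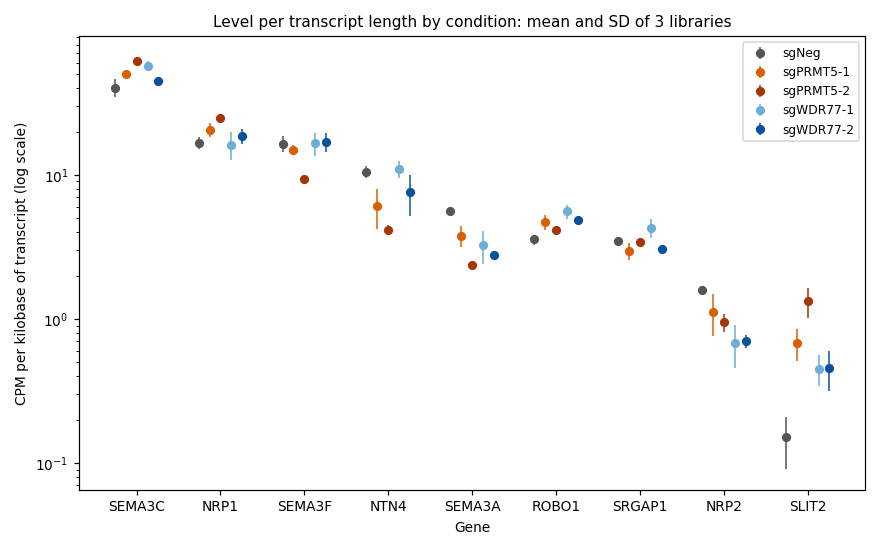
Level of the 9 members with reads in CPM per kilobase of transcript on a log axis, with the mean and SD of 3 libraries for each condition. SEMA3C was highest in every condition, at 40.4 in sgNeg, and SLIT2 lowest in all conditions but sgPRMT5-2, at 0.1503 in sgNeg.

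The other genes of the pathway were read from lists, whose counts stand beside the shares of all genes called, 17% in PRMT5KO against sgNeg, 3.39% in WDR77KO against sgNeg and 14% in PRMT5KO against WDR77KO. Of 10 other Slit and Robo genes, 8 passed the filter in PRMT5KO against sgNeg and 1 was called, beside 17% of all genes. This was SRGAP3, which was lower (-1.53, adjusted p 0.00561, 6 of 6 libraries below sgNeg), a call kept without any 1 library. In WDR77KO limma voom called 0 of 7, beside 3 at an unadjusted p under 0.05 and 0 by limma-trend. In PRMT5KO against WDR77KO 1 of 7 was called, SRGAP3, lower (-0.82, adjusted p 0.0487). That call was lost in 9 of 12 fits with 1 library left out and under 3 of 8 other settings. The paralogues SLIT1, ROBO2 and ROBO4 had 38, 13 and 8 reads over the 15 libraries, where 3 counts in a library correspond to 0.446 to 0.583 CPM. Of 15 netrins and netrin receptors, 6 passed the filter in PRMT5KO, where NTN1 and UNC5B were lower, and 5 in WDR77KO. DSCAM in PRMT5KO (2 reads in the sgNeg libraries) and NTNG1 in WDR77KO (7 reads in the WDR77KO libraries) passed the filter through the group where they were higher, so their calls are not used. The call of NTN1 (-0.73, adjusted p 0.0171) ended without sgNeg replicate 1 (0.0634) or 2 (0.0782), within 0.000341 to 0.0782 over all settings. NTN1 was also lower in PRMT5KO than in WDR77KO (-0.50, adjusted p 0.0444). This call was lost in 8 of 12 fits with 1 library left out and under 2 of 8 other settings. UNC5B, a netrin receptor, fell by 1.48 in PRMT5KO (adjusted p 0.00988, 6 of 6 libraries below sgNeg), and its call ended without sgNeg replicate 1 (adjusted p 0.0557) or 2 (0.057), within 0.000286 to 0.057 over all settings. The netrin receptor DCC had 0 reads.

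Of 17 other semaphorins, 13 passed the filter. In PRMT5KO 2 of them were lower, beside 17% of all genes, SEMA3B (-0.99, adjusted p 0.0021, kept without any 1 library) and SEMA6B (-1.26, adjusted p 0.0138), and the latter call ended without sgNeg replicate 1 (0.0745, within 7.44e-05 to 0.0745). In WDR77KO limma voom called 0 of the 13, beside 5 at an unadjusted p under 0.05 and 0 by limma-trend. The class 3 gene SEMA3B, like the member SEMA3A, was lower in PRMT5KO, in 6 of 6 libraries, at 17.2 to 27.5 CPM against 37.0 to 45.9 in sgNeg. In PRMT5KO against WDR77KO 1 of the 13 was higher and 1 lower, beside 14% of all genes. SEMA7A was higher by 1.32 (adjusted p 0.00756, kept without any 1 library). SEMA6B was lower (-0.80, adjusted p 0.0473). The SEMA6B call was lost in 9 of 12 fits with 1 library left out and under 3 of 8 other settings. Of 9 plexins, the signalling partners of neuropilins, 8 passed the filter; in PRMT5KO PLXNA2 was higher (0.40, adjusted p 0.00988) and PLXNB2 (-0.49, 0.0166) and PLXND1 (-0.41, 0.014) lower. These 3 plexin calls ended without sgNeg replicate 1 (adjusted p 0.0563, 0.0807 and 0.0824), and that of PLXND1 also without sgNeg replicate 2 (0.058). In WDR77KO limma voom called 0 of 8 plexins, beside 2 at an unadjusted p under 0.05 and 0 by limma-trend.

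Of 14 Eph receptors, 9 passed the filter, with 1 higher and 3 lower in PRMT5KO (17% of all genes) and 1 lower in WDR77KO (3.39% of all genes). EPHB4 was lower in both, at -0.70 in PRMT5KO (adjusted p 0.00216) and -1.13 (adjusted p 3.22e-05) in WDR77KO, with 41.4 to 57.1 and 30.2 to 41.2 CPM in 6 libraries each against 69.1 to 84.2 CPM in sgNeg, and both calls were kept without any 1 library. In PRMT5KO against WDR77KO 2 of the 9 Eph receptors were higher (14% of all genes). Among them was EPHB4 (0.45, adjusted p 0.0103, kept without any 1 library). Of 8 ephrins, 6 passed, with 2 lower in PRMT5KO; in WDR77KO limma voom called 0, beside 1 at an unadjusted p under 0.05 and 0 by limma-trend. In PRMT5KO against WDR77KO 1 of the 6 ephrins was higher and 1 lower, beside 14% of all genes. EFNB2 was higher by 1.56 (adjusted p 0.00306, kept without any 1 library). EFNA5 was lower (-0.48, adjusted p 0.034). The EFNA5 call was lost in 9 of 12 fits with 1 library left out and under 1 of 8 other settings. Of 29 cytoplasmic effectors, 26 passed, with 5 higher and 3 lower in PRMT5KO (17% of all genes), 3 lower in WDR77KO (3.39%), and 6 higher in PRMT5KO than in WDR77KO (14%). Of these, MICAL2, CFL1 and VASP had the smallest adjusted p-values in PRMT5KO against WDR77KO (log2 0.83, 0.35 and 0.47; adjusted p 0.00103, 0.00504 and 0.00776), and kept their calls without any 1 library. The calls of these lists that are counted above without a gene name were each lost without at least 1 library, except that of EPHB3 in PRMT5KO against sgNeg.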

How the data were processed

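Gene counts of 15 RNA-seq libraries of HSC-5 were taken as deposited. Per the labels the authors used STAR for alignment to hg38 and HTSeq for counts per gene, so each deposited value is a count of reads. The labels name a stranded mRNA kit and the paper's methods another kit of the same maker, and the strand setting of the counting is not stated. Where exons of opposite strands overlap, reads from the other strand may therefore be included or set aside as ambiguous. The 5 summary entries of each table were left out of library sizes. Reads outside any feature were 2.75% to 7.16% of those listed, highest in sgNeg replicate 2. Gene IDs were matched to a GENCODE annotation of GRCh38, 60507 of 60649, whose release may differ from that of the authors.

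Counts were scaled by the trimmed mean of M values (trims 0.3 and 0.05) and fitted with limma voom (limma 3.58.1, R 4.3.3), without DESeq2. Genes with a mean normalized count of at least 3 over the libraries compared were tested, in 9 comparisons, two-sided, with Benjamini-Hochberg adjustment over all genes tested and a threshold of 0.05. SLIT2 was fitted but given no test against sgNeg, and SLIT3 did not pass the filter. Alternatives were RLE scaling, upper quartile scaling, library totals alone, no filter on low counts, a minimum mean count of 10, a replicate block, all 15 libraries in one fit, limma-trend, and leaving out each library in turn. At this depth 3 counts correspond to 0.446 to 0.583 CPM in a library, and the 15 pairs of replicates gave chi-square values from 1.58 to 19.4 for each degree of freedom, where counting error alone gives about 1. Floors cover counting error only, whereas the intervals of the fits rest on the spread between libraries.

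The members and lists were chosen with earlier results of these data known. The 10 members and the targeted genes are always named. Of each wider list, at most the 3 smallest adjusted p-values per direction in each knockout against sgNeg, and at most 3 genes between the knockouts, are named. The 5 highest and 3 lowest correlations with SLIT2 and SEMA3C are named among genes with a mean of at least 10 normalized counts. Lengths for CPM per kilobase are those of the MANE Select transcripts.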

Additional observations from a re-analysis of the deposited data

Results flagged for a closer look

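A library was marked when its gap to the next one was large beside the range of its group, and 2 of the 18 groups of libraries examined had such a library; chance alone marks about 1 in 20 groups. SRGAP1 stood at 57.0 CPM in sgPRMT5-1 replicate 3, the lowest of the 6 PRMT5KO libraries and apart from the other 5. SEMA3A stood at 33.6 CPM in sgWDR77-1 replicate 1, the highest of the 6 WDR77KO libraries and apart from the other 5.

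Other values were marked because a test found a difference between groups that carry the same kind of change. Between the knockouts (PRMT5KO against WDR77KO) these were SLIT2 with a log2 fold change of 1.05, NTN4 with -0.85, SEMA3F with -0.49 and NRP1 with 0.39. Of these only NTN4 kept its call without any 1 library. The calls of SLIT2, SEMA3F and NRP1 were lost in 7, 7 and 8 of 12 such fits. Between the guides of PRMT5 (sgPRMT5-2 against sgPRMT5-1) these were SLIT2 with 0.98, SEMA3A with -0.66, SEMA3C with 0.30, SEMA3F with -0.66 and NRP1 with 0.27. The call of NRP1 between the guides ended without any 1 of 4 libraries, at adjusted p-values up to 0.189. That of SLIT2 between the guides ended without sgPRMT5-1 replicate 1 (0.063). The SEMA3C call there missed the threshold with all 15 libraries in 1 fit (0.0703). What these differences come from was not tested.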

How the results depend on the processing

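No call of a member turned its direction under any setting. Under the 8 other settings 11 of 648 values of members lost a call and 13 gained one. These values include SLIT2 against sgNeg, which chose the gene, has no test and could neither lose nor gain a call. Sign changed in 7 values without a call. With 1 library left out, 69 of 594 values lost a call and 5 gained one, where SLIT2 against sgNeg is again included without a test. Sign changed in 37 values without a call. The calls of NTN4 and SEMA3A in PRMT5KO, of SEMA3A and NRP2 in WDR77KO, of NTN4 between the knockouts, of all 6 members in sgPRMT5-2, of SEMA3A in sgWDR77-2, and of SEMA3A and SEMA3F between the PRMT5 guides were kept throughout.

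With 1 library left out, genes called ran from 483 to 3562 in PRMT5KO against sgNeg, 199 to 677 in WDR77KO against sgNeg, 876 to 3178 in PRMT5KO against WDR77KO, 211 to 510 in sgPRMT5-1, 4675 to 5668 in sgPRMT5-2, 56 to 1003 in sgWDR77-1 and 293 to 661 in sgWDR77-2, each against sgNeg, and 1429 to 4711 between the PRMT5 guides and 0 to 156 between the WDR77 guides. Members called ran, in the same order, from 2 to 6, 2 to 3, 1 to 5, 0 to 2, 6 to 6, 0 to 4, 1 to 3, 3 to 6 and 0 to 0. Leaving out a library leaves fewer samples, and which of its features moved the counts was not tested.

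With all 15 libraries in one fit, genes called were 1193 in WDR77KO against sgNeg, 3804 in PRMT5KO against WDR77KO, 1333 in sgWDR77-1 against sgNeg, 1078 between the PRMT5 guides (3 members) and 342 between the WDR77 guides (1 member, SRGAP1). With no filter on low counts they were 987 in sgPRMT5-1 against sgNeg and 127 between the WDR77 guides, and with library totals alone 11 between the WDR77 guides. The cause was not tested. Library totals alone also moved the split of calls, from 51.3% to 34.0% higher in PRMT5KO, 57.1% to 37.7% between the knockouts, 40.4% to 27.8% in sgPRMT5-1 and 52.0% to 39.5% in sgPRMT5-2, and the scalings shifted the median log2 fold change by at most 0.08.

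Libraries of different conditions share a replicate number, and 9 of 15 libraries lay closer to those of their own number. Correlations of same-number pairs ran from -0.33 to 0.27, with 4 of 30 above 0.1. Those of different-number pairs ran from -0.26 to 0.46, with 7 of 60 above 0.1. The numbers were therefore not taken to pair the libraries. With the number as a block, genes called were 1427 in sgPRMT5-1 against sgNeg (5 members) and 369 in sgWDR77-2 against sgNeg; the cause was not tested. The block ended the calls of NRP2 in PRMT5KO (adjusted p 0.0557), ROBO1 in WDR77KO (0.0591) and in sgWDR77-2 (0.12) and SEMA3F between the knockouts (0.0529). It gave a call to ROBO1 (0.0409), SEMA3C (0.00933) and NRP1 (0.0192) in sgPRMT5-1 and to NTN4 between the PRMT5 guides (0.0159), and changed no other call of a member.

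SLIT2 rested on 4 to 9 reads in each sgNeg library, and SLIT3 could not be read above 0.0346 CPM over all libraries. Each condition has 3 libraries, and each knockout pools separate guides without a term for the guide. Between guides limma voom called 5 of the 9 members for PRMT5 and 0 of 9 for WDR77. The control is a single condition of 3 libraries that all 6 comparisons against it share.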

Other observations

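Genes were ranked by the Pearson correlation of their log2 CPM with SLIT2 over the 15 libraries, among 11838 genes. The points share conditions, so the values describe likeness across conditions and carry no p. The highest were ELF4 at 0.9754, P3H2 at 0.956, ARNTL2 at 0.955, PVR at 0.950 and LTBR at 0.947, and the lowest PALM at -0.932, SYT17 at -0.928 and OSBPL5 at -0.925. Within conditions, after the mean of each condition was taken away, these stood in the same order at 0.812, 0.605, 0.518, 0.717 and 0.880, and at -0.616, -0.637 and -0.461. For SEMA3C the highest were ICAM1 at 0.927, ATP13A3 at 0.925, ALDH1A3 at 0.920, ARHGEF28 at 0.893 and TMEM156 at 0.888, and the lowest FAM114A2 at -0.876, COQ3 at -0.873 and GPC1 at -0.869. Within conditions these stood in the same order at 0.693, 0.839, 0.798, 0.573 and 0.471, and at -0.737, -0.375 and -0.600.

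Among the members, the pairs furthest from 0 over the 15 libraries were NTN4 with NRP1 at -0.858 (-0.511 within conditions) and SEMA3F with NRP1 at -0.854 (-0.811 within conditions). SLIT2 stood at -0.787 with NTN4 (-0.444 within conditions), 0.763 with NRP1 (0.601), -0.760 with SEMA3A (-0.0519), 0.715 with SEMA3C (-0.105), -0.701 with SEMA3F (-0.296), -0.355 with NRP2 (0.102), 0.290 with ROBO1 (0.0332) and -0.133 with SRGAP1 (-0.127). ROBO1 with SRGAP1 stood at 0.389 over all libraries and at 0.779 within conditions.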
